A study of Homo sapiens with 6 samples.

Results

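Spliced noncoding host genes of small nucleolar RNAs (snoRNAs) were followed across 6 RNA-seq libraries, labelled as coming from 2 mantle cell lymphoma lines. The set was a list of 10 gene symbols, namely GAS5, SNHG1, SNHG5, SNHG6, SNHG7, SNHG8, SNHG12, SNHG15, ZFAS1 and DANCR, among 25277 gene rows. All 10 were found in the table, all 10 are long noncoding RNA genes in the GENCODE annotation of GRCh37, and all 10 passed the filter on low values used for the tests, a mean of at least 1 FPKM. FPKM is the number of fragments of a gene, scaled by transcript length and by the mapped fragments of the library.

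Jeko and Rec-1 are established human mantle cell lymphoma lines, and the disease is a B-cell cancer usually driven by cyclin D1. The stable derivatives were made with a tet-on vector and the CRISPR/Cas9 system, and every library was taken 48 h after doxycycline. By the labels, each line had 1 library with the empty vector (control), 1 with sgRNA 1 and 1 with sgRNA 2. The guides were against NR4A1, a nuclear receptor gene of the immediate early kind. The 2 guides of a line were the replicates of its sgRNA group. Within a line and between the sgRNA groups of the lines, the p-values thus measure the spread between guides. Over both lines the spread also holds any difference of the sgRNA effect between the lines. No p-value measures the spread between separate cultures of a guide. No control had a replicate, and the limma fits within a line assume that the lone control varies as the guides do. Whether the stable lines are pools or single clones is not stated, nor whether guides of the same number are the same sequence in both lines.

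snoRNAs guide the chemical modification of ribosomal RNA and are cut out of the introns of their host genes. The spliced exons of the noncoding hosts remain as an RNA of their own. Many of these genes start, like ribosomal protein genes, with a C followed by a pyrimidine run (a 5′ terminal oligopyrimidine or TOP motif), and several of the spliced RNAs are broken down by nonsense-mediated decay (NMD), a translation-dependent pathway. GAS5 RNA is known to build up in cells whose growth or translation is arrested.

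The start regions of 6 of the genes are shown because they differ in the features just named and because these genes carry the results that follow. Each run holds 45 bases before and 30 bases from the annotated start, 5′ to 3′ on the gene's strand, from RefSeq (GRCh38.p14). Capitals mark a pyrimidine run that begins with C at the start, and TATAA or TTATA before it.
SNHG5, chr6:85678704-85678778 (minus strand): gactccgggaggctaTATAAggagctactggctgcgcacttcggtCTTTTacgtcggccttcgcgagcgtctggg
SNHG12, chr1:28581844-28581918 (minus strand): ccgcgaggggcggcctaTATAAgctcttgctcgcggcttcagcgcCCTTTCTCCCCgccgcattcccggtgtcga
ZFAS1, chr20:49278597-49278671 (plus strand): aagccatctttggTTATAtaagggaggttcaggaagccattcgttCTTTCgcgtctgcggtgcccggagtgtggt
SNHG1, chr11:62855856-62855930 (minus strand): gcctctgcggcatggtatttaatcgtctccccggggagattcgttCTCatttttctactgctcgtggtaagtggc
GAS5, chr1:173869016-173869090 (minus strand): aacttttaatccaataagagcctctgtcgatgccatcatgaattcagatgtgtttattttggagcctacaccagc
DANCR, chr4:52712349-52712423 (plus strand): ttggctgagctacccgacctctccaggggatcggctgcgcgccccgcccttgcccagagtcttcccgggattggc
SNHG5, SNHG12 and ZFAS1 had a C and an unbroken run of at least 5 pyrimidines at the start, SNHG1 had a run of 3, and GAS5 and DANCR began with A and G. A run of 5 or more was found in 3 of the 8 members with an entry in this table, against 4.07% of all 35116 entries. TATAA or TTATA, searched on both strands with overlapping matches counted once, lay in the 50 bases before the start in 5 of 8 members (SNHG5, SNHG7, SNHG8, SNHG12 and ZFAS1), against 6.08% of entries. SNHG6 and SNHG15 were not in the table. These are matches of letters and describe no measured use of the start. They cover 1 annotated start per member, while GAS5 has 91 annotated transcripts in GENCODE. Other starts were not searched, so no member is classed here as lacking a TOP motif.

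The RNA of the targeted gene was lower than control with both guides in Jeko, but not in the pair labelled Rec-1 sgRNA. These RNA levels do not show whether the gene was cut. Against control, NR4A1 did not pass an adjusted p of 0.05 in Jeko (log2 difference -0.44, 95% interval -1.79 to 0.91) or over both lines (0.10, SE 0.39, limma adjusted p = 0.882). By sign, 36.4% of genes were below the control with both Jeko guides. Between the sgRNA groups NR4A1 was higher in the pair labelled Rec-1 (1.94, SE 0.41, limma adjusted p = 0.0382), where 25.7% of genes passed. It did not pass with genes of low level kept (0.0751). NR4A1 was at 5.99 FPKM in the Jeko control, 3.89 in Jeko sgRNA 1 and 4.44 in Jeko sgRNA 2. It was at 11.6 in the library labelled Rec-1 control, and at 27.4 and 12.7 in the libraries labelled as its sgRNA 1 and 2. The library labelled Rec-1 control also correlated more closely with the Jeko control (Pearson r = 0.989 over 9696 protein-coding genes) than with the pair of libraries labelled Rec-1 sgRNA (r = 0.805 and 0.812). CCND1, the cyclin D1 gene, ranged from 442 to 815 FPKM over Jeko and stood at 495 in the library labelled Rec-1 control, but at 0.696 and 0.592 in the other two. Of the 13 markers of other cell types, the summed level was 2.65 to 5.73 FPKM in the 4 libraries that had CCND1, and 72.8 and 104 in the pair labelled Rec-1 sgRNA. Most of the latter was CD3D, at 66.3 and 95.3 FPKM, and CD3E was at 5.19 and 5.80 there against at most 0.531 in the other 4, while CD2 was at most 0.0291 in any library and MPO, HBB and COL1A2 were listed at 0 in all 6. The 6 B-cell markers were at 3.57 FPKM or more in every library, CD79A between 265 and 596. Of the mantle cell lymphoma markers SOX11 was at 2.45 to 11.1 FPKM and CD5 at most 0.0785. Whatever separates the library labelled Rec-1 control from the pair labelled Rec-1 sgRNA cannot be told apart from the sgRNA in the comparisons within Rec-1. Sums of FPKM lay between 905778 and 1160110, and 15478 to 16150 genes were above 0. Low values gave relative depths of 0.687 to 1.10 against the Jeko control, and none for the library labelled Rec-1 sgRNA 1. In bulk RNA, fewer cells with a transcript and less of it per cell cannot be told apart.

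SNHG5 and GAS5 were the most abundant of the 10 on average, at means of 1055 and 1258 FPKM over the 6 libraries, and SNHG12 was the least abundant, at 22.5 FPKM. Between them came ZFAS1 (856), SNHG6 (567), SNHG8 (527), SNHG1 (433), SNHG15 (137), DANCR (111) and SNHG7 (73.5). The control libraries ordered them similarly, with SNHG5 first, GAS5 second and SNHG12 last in both. In the library labelled Rec-1 control each gene was between 91.6% (SNHG6) and 159% (SNHG1) of its level in the Jeko control. The order was not held in the sgRNA libraries. GAS5 stood first in Jeko sgRNA 2, and ZFAS1 first in both libraries labelled Rec-1 sgRNA, where SNHG5 was seventh and sixth. FPKM are scaled by length, so levels of different genes can be set beside each other, but neighbours such as SNHG6 and SNHG8, or DANCR and SNHG7, had overlapping ranges over the 6 libraries.

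**Figure D1:**
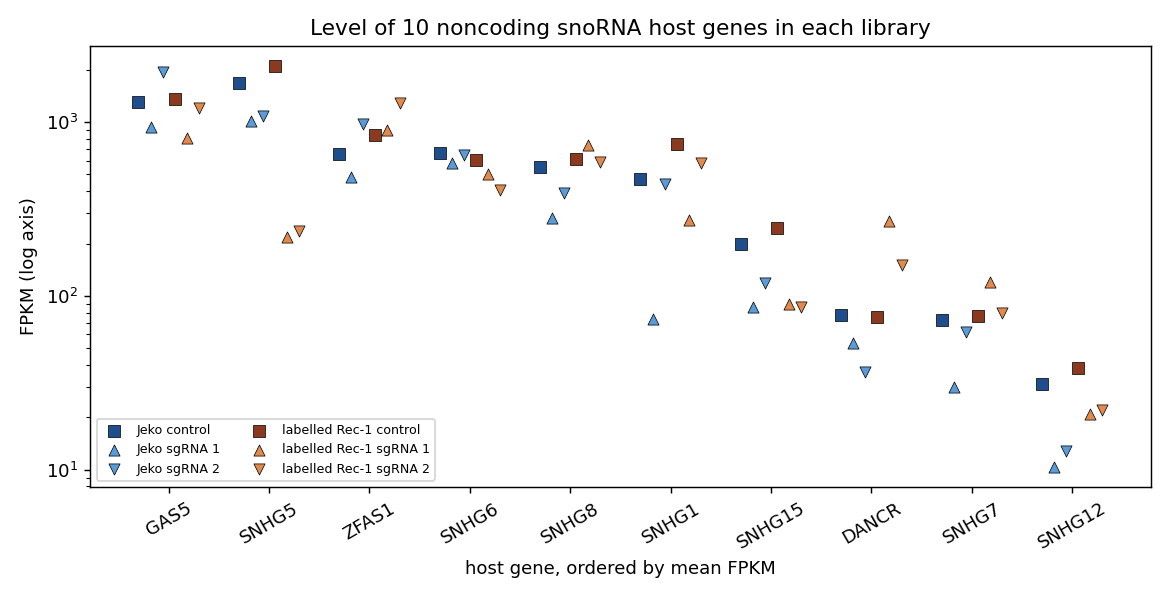
FPKM (log axis) of the 10 host genes, with 1 point per library for the 3 Jeko libraries and the 3 libraries labelled Rec-1. SNHG5 lay between 1016 and 2103 FPKM in 4 libraries and at 217 and 235 in the pair labelled Rec-1 sgRNA, while DANCR was highest in those 2 libraries.

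The first comparison asked how the host genes stood in the sgRNA libraries against the empty-vector control of their own line. SNHG5, SNHG12 and SNHG15 were below both controls in all 4 sgRNA libraries, 3 of 10 members against 16.3% of genes. SNHG1 and SNHG6 were also below their own-line control in all 4, so 5 of 10 members were, against 21.1% of the 11400 genes tested, and no member was above it in all 4, against 21.0%. Over both lines none of the 10 passed an adjusted p of 0.05 in limma, where 0.246% of genes did. At an unadjusted p under 0.05, 3 of 10 members were lower, against 10.6% of genes. The members' median log2 difference was -0.29, beside 0.0079 over all genes tested.

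SNHG15, known as a short-lived RNA, was at 199 FPKM in the Jeko control, 86.3 in Jeko sgRNA 1 and 119 in Jeko sgRNA 2. It was at 245 in the library labelled Rec-1 control and at 89.8 and 86.8 in those labelled sgRNA 1 and 2. The 4 sgRNA libraries thus lay between 35.5% and 59.9% of their controls and did not overlap with them. The log2 difference over both lines was -1.21 (SE 0.23, limma adjusted p = 0.167).

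SNHG12, host of 4 snoRNAs of which 3 are of the H/ACA class, had a much lower level. It was at 31.2 FPKM in the Jeko control, 10.4 and 12.7 in Jeko sgRNA 1 and 2, 38.3 in the library labelled Rec-1 control and 20.8 and 21.9 in those labelled sgRNA 1 and 2. Every sgRNA library was between 33.2% and 57.1% of its control. The log2 difference over both lines was -1.09 (SE 0.21, limma adjusted p = 0.169).

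SNHG5 was at 1672 FPKM in the Jeko control, 1016 in Jeko sgRNA 1 and 1087 in Jeko sgRNA 2. It was at 2103 in the library labelled Rec-1 control, and at 217 and 235 in the pair labelled Rec-1 sgRNA. The Jeko sgRNA libraries were at 60.8% and 65.0% of their control and those labelled Rec-1 at 10.3% and 11.2%. The difference over both lines, -1.94 (SE 0.56), had the largest size of the 10 and an adjusted p of 0.191 in limma. That SE also holds the gap between the lines, and within a line the SE was 0.19.

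**Figure D2:**
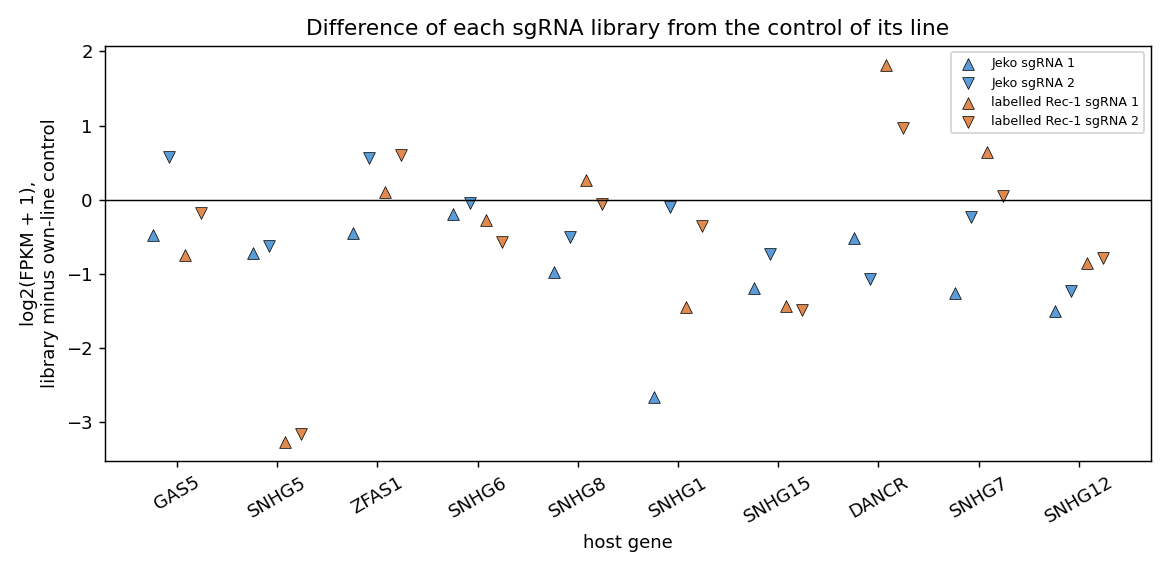
Log2 difference of each sgRNA library from the control of its own line, on the log2(FPKM + 1) scale, with 1 point per sgRNA library for each of the 10 genes. SNHG5, SNHG12, SNHG15, SNHG1 and SNHG6 lie below 0 in all 4 libraries, and DANCR and SNHG7 lie below 0 in Jeko and above 0 in Rec-1.

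Within Jeko, 8 of 10 members were below the control in both sgRNA libraries, against 36.4% of genes. The exceptions were GAS5 and ZFAS1, which were below the control with sgRNA 1 and above it with sgRNA 2. The median of the members was -0.74 on the log2 scale, beside 0 over all genes. None of the 10 passed the adjusted threshold, which 0.439% of genes did, and SNHG5, SNHG12 and SNHG15 were below an unadjusted p of 0.05, which 11.3% of genes were (4.26% as lower). SNHG12 had the lowest p of them, with a difference of -1.37 (SE 0.23, limma adjusted p = 0.261).

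Within Rec-1 as labelled, SNHG5 and SNHG15 fell past the threshold. This was 2 of 10 members in a comparison where 19.2% of all genes passed and 9.11% passed as lower. By sign alone, 6 of 10 members were below the control in both sgRNA libraries and 3 (SNHG7, ZFAS1 and DANCR) above it, against 43.1% and 41.8% of genes. The SNHG5 difference was -3.21 (SE 0.19, 95% interval -3.75 to -2.68, limma adjusted p = 0.0037). That of SNHG15 was -1.46 (SE 0.28, limma adjusted p = 0.0394), and it no longer passed when any sgRNA library was left out (adjusted p from 0.0634 to 0.147) or when genes of low level were kept (0.0574). SNHG12 was at -0.81 (SE 0.23, adjusted p = 0.0819) and SNHG6 at -0.42 (SE 0.24, adjusted p = 0.269).

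DANCR, an RNA known for holding progenitor cells undifferentiated, and SNHG7 were below the control with both Jeko guides and above it in the pair labelled Rec-1 sgRNA, and passed in no test against control. DANCR was at 77.3 FPKM in the Jeko control and at 53.6 and 36.5 in Jeko sgRNA 1 and 2. It was at 76.0 in the library labelled Rec-1 control and at 271 and 150 in those labelled sgRNA 1 and 2. The controls were at nearly the same level and the sgRNA libraries lay on opposite sides of them. SNHG7 was at 73.0 in the Jeko control and 29.9 and 62.2 in Jeko sgRNA 1 and 2, against 76.3, 120 and 79.3 in the 3 libraries labelled Rec-1, where the last was at 104% of its control. Among all genes 9.90% were below in both Jeko and above in both Rec-1 sgRNA libraries.

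The difference between the lines, as labelled, in the sgRNA effect was tested as an interaction. SNHG5 was the 1 member of 10 that passed, in a test that 6.94% of genes passed. Its log2 difference from control in Rec-1 minus that in Jeko was -2.54 (SE 0.28, limma adjusted p = 0.0207), and with any of the 4 sgRNA libraries left out the adjusted p was between 0.0861 and 0.0985. For DANCR the interaction was 2.19 (SE 0.67, 95% interval 0.33 to 4.04, adjusted p = 0.175) and for SNHG7 it was 1.10 (SE 0.78, 95% interval -1.04 to 3.23, adjusted p = 0.480).

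The second comparison set the pair labelled Rec-1 sgRNA against the Jeko sgRNA libraries, without the controls. SNHG5 was 4.65-fold higher in the Jeko sgRNA libraries by their means, and DANCR was 4.67-fold and SNHG12 1.85-fold higher in those labelled Rec-1. These 3 of 10 members passed the threshold, in a comparison where 25.7% of all genes did. The log2 differences, Rec-1 minus Jeko, were -2.21 for SNHG5 (SE 0.16, limma adjusted p = 0.0030), 2.16 for DANCR (SE 0.38, adjusted p = 0.0262) and 0.84 for SNHG12 (SE 0.19, adjusted p = 0.0455). With any library left out SNHG5 alone passed, with adjusted p-values of DANCR from 0.0693 to 0.117 and of SNHG12 from 0.107 to 0.185. Keeping the genes of low level took DANCR to 0.0564 and SNHG12 to 0.0554, and SNHG12 was also lost with a mean of at least 5 FPKM (0.0587) and with the guide number as a block (0.0586).

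SNHG8 was at 279 and 391 FPKM with the Jeko guides and at 737 and 588 in the pair labelled Rec-1 sgRNA. It did not pass (log2 difference 0.99, SE 0.25, limma adjusted p = 0.0577), and did when each library was centred on its median (0.0485). SNHG7 had a difference of 1.16 (SE 0.44, 95% interval -0.05 to 2.37). The 2 groups of sgRNA libraries did not overlap for 6 of 10 members (SNHG5, SNHG6, SNHG7, SNHG8, SNHG12 and DANCR), against 69.9% of genes. For SNHG15 the interval of the difference ran from -0.81 to 0.41.

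**Figure D3:**
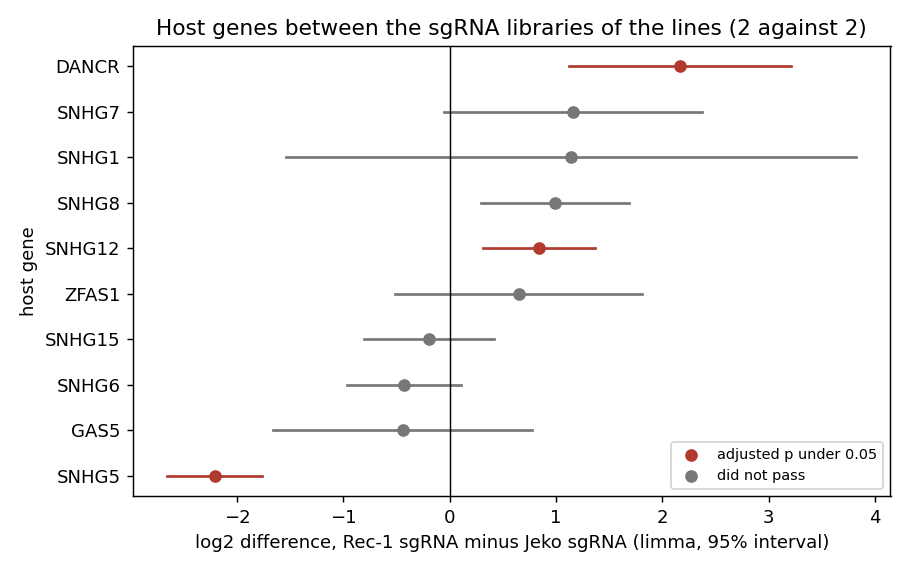
Log2 difference of the pair labelled Rec-1 sgRNA minus the Jeko sgRNA libraries for the 10 genes, on the log2(FPKM + 1) scale, with 95% intervals from limma. SNHG5 lies at -2.21, and DANCR and SNHG12 lie at 2.16 and 0.84.

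GAS5, SNHG1, ZFAS1, DANCR and SNHG7 had larger fitted differences between the guides than between sgRNA and control over both lines, a pattern chosen for description after the values were seen. GAS5, the growth arrest-specific transcript, was at 1297 FPKM in the Jeko control, 933 in sgRNA 1 and 1939 in sgRNA 2. It was at 1363, 809 and 1206 in the corresponding libraries labelled Rec-1. The sgRNA 2 level was therefore 2.08-fold the sgRNA 1 level in Jeko and 1.49-fold in Rec-1.

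ZFAS1, transcribed opposite the start of ZNFX1, was at 659, 482 and 975 FPKM in the Jeko control, sgRNA 1 and sgRNA 2, and at 839, 901 and 1279 in the libraries labelled Rec-1. SNHG1, which hosts 8 of the snoRNAs listed here, was at 473, 73.9 and 442 in Jeko and at 750, 275 and 585 in Rec-1 as labelled. Its level with sgRNA 2 was 5.98-fold that with sgRNA 1 in Jeko and 2.13-fold in Rec-1. DANCR had the opposite order, at 0.681 and 0.554 of the sgRNA 1 level in Jeko and Rec-1. By sign, 5 of 10 members were higher with guide 2 in both lines, against 27.8% of genes, and DANCR alone was lower, against 26.7%.

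A limma comparison of guide 2 with guide 1, with the line as covariate and added after the data were seen, gave no gene past the adjusted threshold, and 5.75% of genes at an unadjusted p under 0.05. Of the 10 members 4 had such a p, with log2 differences of 1.83 for SNHG1 (SE 0.43), 0.81 for GAS5 (SE 0.22), 0.76 for ZFAS1 (SE 0.23) and -0.70 for DANCR (SE 0.19), each with an adjusted p of 0.715. SNHG5, at -3.21 against its Rec-1 control, differed by 0.10 (SE 0.18) between the guides. For SNHG1, where the Jeko guides lay far apart, the interval against control in Jeko ran from -4.71 to 1.95.

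Transcript length moved with these differences. Annotated transcripts of the 10 had median lengths from 489 nt (SNHG8) to 1310 nt (SNHG1), all within the shortest quintile of protein-coding genes, which runs from 295 to 1775 nt. The length of a protein-coding gene is that of its canonical transcript, so unlike measures of length are set side by side here and in the adjustment. In Jeko, the median difference of protein-coding genes from the control was -0.33 in that quintile and 0.36 in the longest, and in Rec-1 as labelled -0.23 and 0.17. With the trend over length removed, the members' median in Jeko was -0.35 with 7 of 10 lower, and in Rec-1 -0.21 with 6 of 10 lower. Over both lines it was 0.025, and 4 of 10 were lower in place of 8, with GAS5, SNHG6, SNHG7 and SNHG8 changing sign. The part of length in the members' differences was not tested further.

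**Figure D4:**
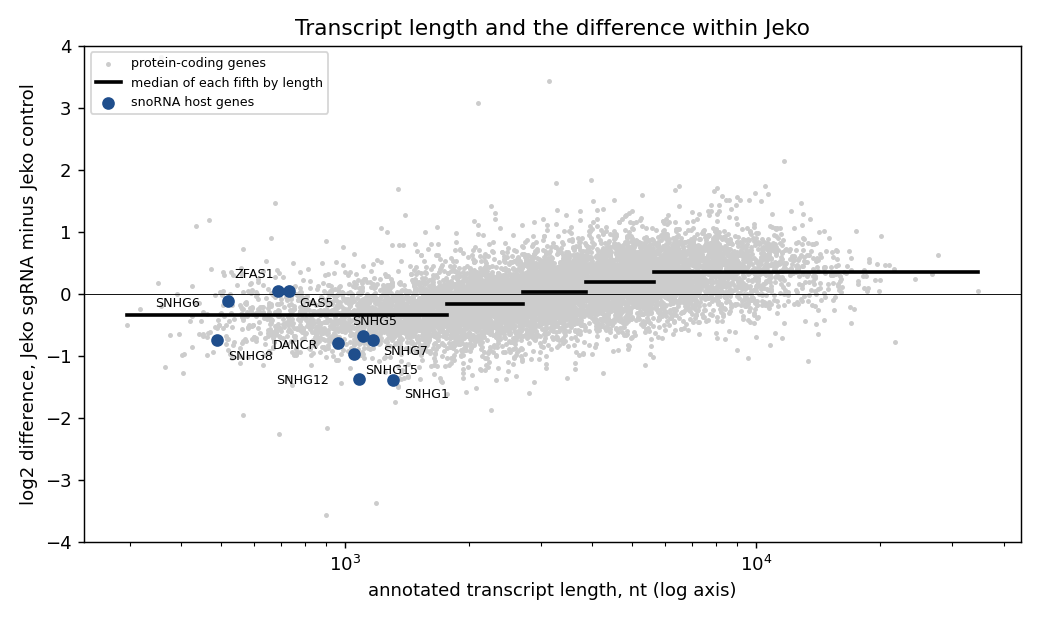
Log2 difference of the Jeko sgRNA libraries from the Jeko control against annotated transcript length (log axis), for protein-coding genes (grey), the median of each quintile by length (bars) and the 10 host genes (blue). The medians go from -0.33 in the shortest quintile to 0.36 in the longest, and the 10 genes lie in the range of the shortest quintile.

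The snoRNAs encoded within the 10 genes were set beside their hosts. Mature snoRNAs are short and carry no poly(A) tail. How fully these libraries took up mature snoRNAs was not tested, so their FPKM need not follow the level in the cell. The list held 35 names, of which 33 were in the table and 28 were tested, and 12 of those were listed at 0 in at least 1 library. In Jeko 18 of 28 had a fitted difference opposite in sign to that of the host, in Rec-1 as labelled 11 of 28, and over both lines 15 of 28. None passed the threshold as lower in these comparisons. As higher, 1 of 28 passed over both lines and 1 in Jeko, where 0.246% and 0.439% of all genes passed. In Rec-1 as labelled 4 of 28 passed as higher, where 19.2% of all genes passed. Between the groups of sgRNA libraries 4 of 28 passed as higher in those labelled Rec-1 and 2 as lower, where 25.7% of all genes passed.

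SNORA43, which lies within SNHG7 and which RefSeq calls SNORA17B, rose over both lines (log2 difference 7.09, limma adjusted p = 0.00075). It was at 3.43 FPKM in the Jeko control, 829 and 527 in Jeko sgRNA 1 and 2, 17.2 in the library labelled Rec-1 control and 2160 and 2393 in those labelled sgRNA 1 and 2. The log2 difference was 7.22 in Jeko (SE 0.35, limma adjusted p = 0.0083) and 6.96 in Rec-1 (SE 0.35, adjusted p = 0.0028). The call in Jeko was lost with any sgRNA library left out (adjusted p from 0.0547 to 0.167), with genes of low level kept (0.0530) and with the Jeko libraries alone (0.136). SNHG7 itself had differences of -0.74 and 0.35 and passed in neither.

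The most abundant of the other hosted snoRNAs were SNORD47 and SNORD76 of GAS5 and SNORD27, SNORD28 and SNORD29 of SNHG1. SNORD47 was at 3699, 1508 and 447 FPKM in the Jeko control, sgRNA 1 and sgRNA 2, where GAS5 was at 1297, 933 and 1939, and at 2988, 2684 and 1555 in the libraries labelled Rec-1, where GAS5 was at 1363, 809 and 1206. SNORD27 was at 124, 711 and 562, where SNHG1 was at 473, 73.9 and 442, and at 563, 737 and 1263 in Rec-1 as labelled, where SNHG1 was at 750, 275 and 585. SNORD47 was thus below its own-line control in all 4 sgRNA libraries and SNORD27 above it. SNORD76 was also above it in all 4, with 556, 1345 and 672 in Jeko, and 674, 2053 and 1079 for the libraries labelled Rec-1. SNORD29 was at 257, 1178 and 699 in Jeko but at 2568, 1902 and 1122 in the libraries labelled Rec-1, and SNORD28 at 769, 1432 and 523 and at 611, 163 and 420. None of these 5 passed in Jeko, in Rec-1 or over both lines. FPKM are scaled by length, so a high value of a short RNA can rest on few fragments.

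In Rec-1 as labelled, 3 more snoRNAs passed as higher, named here after their values were seen: SNORD25 of SNHG1, and SNORD99 and SNORA16A of SNHG12. Each was listed at 0 in the library labelled Rec-1 control, so no fold is given. SNORD25 was at 497 and 593 FPKM in the libraries labelled sgRNA 1 and 2, SNORD99 at 108 and 96.3 and SNORA16A at 56.0 and 82.0. Such values can rest on few fragments. SNORD25, SNORD50B, SNORD79 and SNORD99 had the same ratio, 115%, between Jeko sgRNA 1 and the Jeko control, the ratio that equal numbers of fragments give at the relative depth of 0.872 estimated for Jeko sgRNA 1. With Jeko sgRNA 1 and 2, SNORD27 was at 573.2% and 453.46% of its control, and SNORD29 at 458.56% and 272.08%. These are whole multiples of 114.64% and 90.692%, the ratios of SNORD50B with the same guides. The rises of SNORD27 and SNORD29 in Jeko can thus rest on few fragments as well.

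**Figure D5:**
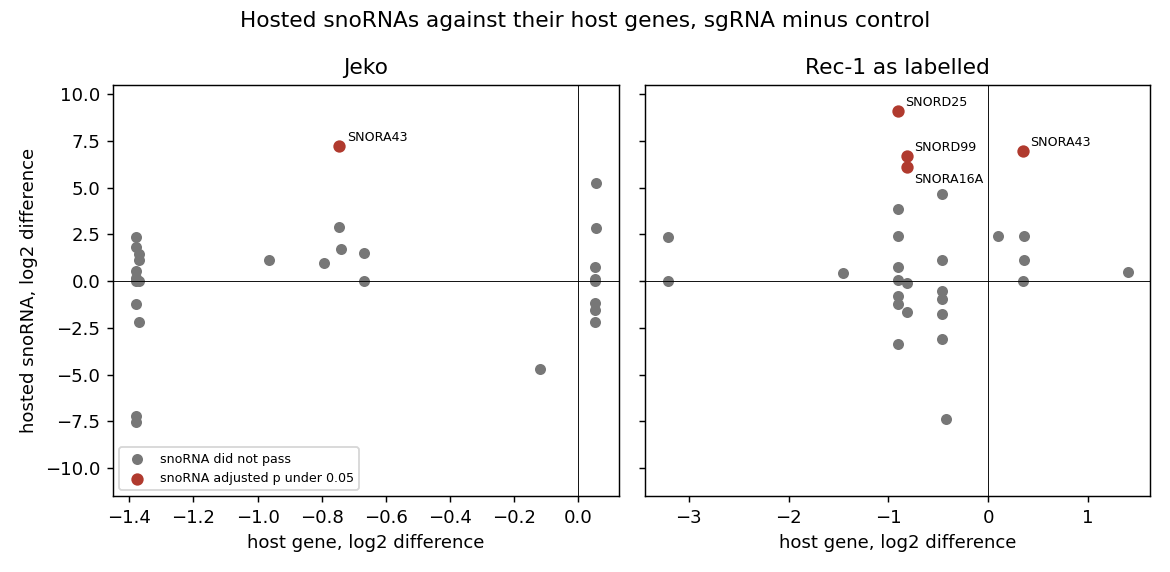
Log2 difference of each tested hosted snoRNA from control against that of its host gene, in Jeko (left) and Rec-1 as labelled (right), on the log2(FPKM + 1) scale, with snoRNAs past the adjusted threshold in red. SNORA43 lies at 7.22 and 6.96 while its host SNHG7 lies at -0.74 and 0.35.

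Other noncoding host genes were measured for comparison. Of 12 listed, 9 were tested and 8 of the 9 were lower in Jeko as fitted. Their median there was -1.34, beside 0 over all genes tested, but none passed in Jeko or over both lines. No length-adjusted value is given for this list. SNHG20 and SNHG17 had the lowest p over both lines (-1.48, SE 0.20, limma adjusted p = 0.106 and -1.27, SE 0.19, adjusted p = 0.127) and in Jeko (-1.45, SE 0.24, adjusted p = 0.255 and -1.09, SE 0.21, adjusted p = 0.339). SNHG20 was at 10.4, 3.13 and 3.23 FPKM in Jeko and 9.95, 3.39 and 2.39 in Rec-1 as labelled. In Rec-1 SNHG17 (-1.45, SE 0.21, limma adjusted p = 0.0226) and SNHG20 (-1.51, SE 0.24, adjusted p = 0.0258) fell and SNHG4 rose (1.52, SE 0.32, adjusted p = 0.0474). SNHG4 did not pass with a pseudocount of 0.1 (0.0508) or a minimum mean of 5 FPKM (0.0570). The calls were 3 of 9, in a comparison that 19.2% of all genes passed. None of these 3 passed with any sgRNA library left out (adjusted p of SNHG17 from 0.0722 to 0.102, of SNHG20 from 0.0781 to 0.0975 and of SNHG4 from 0.0992 to 0.144), and SNHG17 alone passed with genes of low level kept. Between the groups of sgRNA libraries SNHG3 (1.90, SE 0.33, adjusted p = 0.0257) and SNHG4 (1.32, SE 0.27, adjusted p = 0.0363) were higher in those labelled Rec-1, as 2 of 9 where 25.7% of all genes passed. Neither passed with genes of low level kept (0.0532 and 0.0618), and with a library left out SNHG3 passed only without Jeko sgRNA 1 and SNHG4 never did.

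The factors of NMD and the protein-coding TOP genes bear on how host RNAs are made and lost. Of 10 NMD factors none passed over both lines or in Jeko. UPF3A fell in Rec-1 as labelled (-1.53, SE 0.24, limma adjusted p = 0.0257), as 1 of 10 where 19.2% of all genes passed. It was also lower in the pair labelled Rec-1 sgRNA than in the Jeko sgRNA libraries (-1.22, SE 0.19, adjusted p = 0.0198), as 1 of 10 where 25.7% of all genes passed. With any sgRNA library left out UPF3A passed in neither comparison (adjusted p from 0.0814 to 0.0999 and from 0.0829 to 0.109). The lowest p over both lines were those of SMG9 (-0.79, SE 0.22, adjusted p = 0.186) and UPF3A (-0.996, SE 0.29, adjusted p = 0.192), and in Jeko those of SMG6 (-0.49, SE 0.20, adjusted p = 0.459) and UPF2 (0.53, SE 0.22, adjusted p = 0.459). Of 20 TOP genes 18 were tested, and EEF1A1 was listed at 0 in all 6 libraries. Without length adjustment their medians were 0.19 in Jeko and 0.04 in Rec-1, where those of the 10 host genes were -0.74 and -0.44. With it the host medians were -0.35 and -0.21, and no such value is given for the TOP genes. None passed within a line or over both, with EEF2, the translocation factor of the ribosome, at 0.79 (SE 0.21, adjusted p = 0.179) and EEF1D at -0.58 (SE 0.18, adjusted p = 0.203) over both lines. The lowest p were those of EEF2 (0.70, SE 0.31, adjusted p = 0.477) and EIF4B (0.62, SE 0.28, adjusted p = 0.479) in Jeko, and those of NAP1L1 (-0.83, SE 0.20, adjusted p = 0.0625) and EIF3E (0.56, SE 0.19, adjusted p = 0.116) in Rec-1. NAP1L1 (-1.14, SE 0.16, adjusted p = 0.0159) and NACA (-0.72, SE 0.17, adjusted p = 0.049984) were lower in the pair labelled Rec-1 sgRNA than in the Jeko sgRNA libraries. These were 2 of 18 TOP genes, in a comparison that 25.7% of all genes passed. NAP1L1 did not pass with any library left out (adjusted p from 0.0743 to 0.101). NACA did not pass then (0.132 to 0.198) or with a pseudocount of 0.1 (0.0595), genes of low level kept (0.0843), a minimum mean of 5 FPKM (0.0552), median centring (0.0515), the length adjustment (0.0634) or the guide number as a block (0.0801).

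None of these lists had a gene past the threshold in the interaction, where the lowest p of each list were those of SNHG3 (2.22, SE 0.58, limma adjusted p = 0.132) and SNHG4 (1.39, SE 0.46, adjusted p = 0.194), of UPF3A (-1.06, SE 0.34, adjusted p = 0.184) and UPF1 (0.54, SE 0.29, adjusted p = 0.366), and of NAP1L1 (-1.03, SE 0.29, adjusted p = 0.149) and NACA (-0.70, SE 0.27, adjusted p = 0.250).

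The average profile of the 10 genes, each centred on its own mean, was 0.29 in the Jeko control and 0.49 in the library labelled Rec-1 control, -0.71 and -0.05 in Jeko sgRNA 1 and 2, and -0.02 and -0.0012 in those labelled Rec-1 sgRNA. The genes with the nearest profiles over the 6 libraries were SLC39A13 (distance 0.191, r = 0.984), SPPL2B (0.226), ZMAT5 (0.263), ZNF671 (0.277) and LINC01138 (0.287). Each of these 5 was below its own-line control in all 4 sgRNA libraries, SLC39A13 at 3.53, 1.57 and 3.13 FPKM in Jeko and 4.405, 2.80 and 2.78 in Rec-1 as labelled. These 5 were picked as the nearest of all genes tested, so their small distances and like pattern follow from that choice. The members lay at distances from 0.752 for SNHG8 to 3.04 for SNHG5 from their average. The profile thus sums up genes that varied in different ways, with SNHG5 and DANCR (2.33) farthest from it.

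In GRCh37 coordinates the 10 genes were placed as follows. SNHG5 lies at chr6:86360209-86388650 and SNHG15 at chr7:45022618-45026560, both on the minus strand. Neither has an annotated gene on the opposite strand. SNHG5 overlaps the pseudogene PKMP3 and an unnamed gene annotated as protein-coding, both on its own strand. SNHG12 (chr1:28905050-28909644, minus) overlaps TRNAU1AP, SNHG7 (chr9:139615818-139622636, minus) overlaps DIPK1B, GAS5 (chr1:173827697-173838020, minus) overlaps ZBTB37 and GAS5-AS1, and SNHG6 (chr8:67832796-67838633, minus) overlaps MCMDC2. On the plus strand ZFAS1 (chr20:47894715-47916137) overlaps ZNFX1, SNHG8 (chr4:119199858-119206471) overlaps PRSS12 and DANCR (chr4:53578492-53589790) overlaps ERVMER34-1, each on the opposite strand. SNHG1 (chr11:62619450-62623425, minus) has no such overlap. Whether the counting used strand is not stated, so reads of these 7 genes and their opposite partners cannot be told apart. For SNHG5 and its partners on the same strand, strand could not separate the reads in either case.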

How the data were processed

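The authors deposited FPKM values in 1 table, in which every library has its own column (6 in all), made from total RNA with an Illumina TruSeq RNA kit, per the labels' protocols. TopHat and hg19 are named in the submitters' processing notes. The program that computed FPKM, its annotation and its use of strand are not given in the sources used here, and the depth in fragments is unknown, which leaves counting intervals out of reach. Relative depth was read from the steps of genes under 0.05 FPKM. The number of fragments limits the precision of low values.

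Columns were matched to samples by line and guide number. Values were analysed as log2(FPKM + 1), and differences on this scale understate changes of low genes. The 11400 genes whose mean reached 1 FPKM were tested with limma 3.58.1 in R 4.3.3 (eBayes with a mean-variance trend, Benjamini-Hochberg adjustment over all genes tested, threshold 0.05). The comparison over both lines had the line as covariate. Those within a line and their interaction used 4 group means over all 6 libraries, and the lines were compared over the 4 sgRNA libraries. The fits were tested on simulated data. The rest was done in Python 3.11.15 (pandas 2.3.3, numpy 2.4.6, matplotlib 3.10.9, scipy 1.17.1).

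The members and lists (other noncoding host genes, NMD factors, TOP translation genes, hosted snoRNAs, B-cell, mantle cell lymphoma and other cell type markers) were chosen with earlier results of these data known. Always named were the 10 members and NR4A1. Added were list genes past the threshold (at most 4 per list and comparison, or the 2 with the lowest p), the 5 genes nearest to the members' mean profile by Euclidean distance, and the 6 hosted snoRNAs with the highest mean. Transcript lengths and GRCh37 positions came from GENCODE v44lift37, matched by symbol (21188 of 25277 rows). RefSeq gave start regions and the place of snoRNAs within their hosts. A total of 28 names look like calendar dates and 2 occur in more than 1 row. Alternatives were a pseudocount of 0.1, no filter, a mean of at least 5 FPKM, median centring, adjustment for length by lowess, eBayes without a trend, the guide number as a block and leaving out each library. Some marker genes and overlapping genes are not reported here by name.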

Additional observations from a re-analysis of the deposited data

Results flagged for a closer look

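SNHG5 differed between the lines in its distance from control by -2.54 on the log2 scale (Rec-1 minus Jeko, SE 0.28, limma adjusted p = 0.0207). It was lower than the own-line control in 4 of 4 sgRNA libraries, and the interaction did not pass with any sgRNA library left out. DANCR (2.19), SNHG7 (1.10) and NR4A1 (1.09) were below the control with each Jeko guide and above it in each library labelled Rec-1 sgRNA, with SNHG7 in Rec-1 sgRNA 2 at 104% of its control, and their interactions had limma adjusted p-values of 0.175, 0.480 and 0.438. Of 28 hosted snoRNAs tested, 3 passed as higher and 1 as lower in the interaction, which 6.94% of all genes passed. Those higher were SNORD25 (8.56), SNORD99 (6.66) and SNORA16A (4.97) (limma adjusted p = 0.0079, 0.0077 and 0.0238). Each of these 3 was listed at 0 in the library labelled Rec-1 control, so their fitted sizes depend on the pseudocount and are no measure of a fold. SNORD12 of ZFAS1, named after its values were seen, differed in the other direction (-4.10, SE 0.65, limma adjusted p = 0.0449). It was listed at 0 in the Jeko control and was at 41.0 and 32.4 FPKM with the Jeko guides, and at 97.6, 293 and 156 in the libraries labelled Rec-1. With any sgRNA library left out the interactions of SNORA16A (adjusted p from 0.0777 to 0.109) and SNORD12 (0.0649 to 0.196) did not pass, nor did either with genes of low level kept (0.0563 and 0.0931), and SNORD12 also did not pass at a minimum mean of 5 FPKM (0.0658). Those of SNORD25 and SNORD99 did not pass without Jeko sgRNA 2 (both 0.0511). All of these differences use the library labelled Rec-1 control, which was closer to the Jeko control than to the libraries labelled Rec-1 sgRNA. The part of that library in them was not tested.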

How the results depend on the processing

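SNHG5 passed within Rec-1 and between the groups of sgRNA libraries under every alternative run. Over both lines 28 genes passed, 12 with no filter, 18 with the length adjustment and 9 under the replicate block (guide number). Within Rec-1, 2184 genes and 2 members passed, against 1083 genes at a minimum mean of 5 FPKM and 1 member with no filter. For the interaction 791 passed, and 318 at the same minimum. Between the sgRNA groups 2933 genes and 3 members passed, against 1529 genes at that minimum and 1 member with no filter. The guide comparison, added after seeing the data, had 0, then 8 at the higher minimum and 12 with median centring. The length adjustment reversed GAS5 (0.11), SNHG6 (0.049), SNHG7 (0.12) and SNHG8 (0.00082) over both lines, SNHG6 in Jeko (0.30) and SNHG6 between guides (0.020). Apart from the length adjustment, which changes the values themselves, the cause was not tested.

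Each library was left out in turn (fewer samples, the lone sample being assumed to vary like the rest). Over both lines, 11 to 18 genes and 0 members passed with 1 sgRNA library left out. Without a control, that fit sets sgRNA against control in the other line alone and no longer covers both lines. The ranges were 657 to 2180 genes and 1 to 2 members in Rec-1, 75 to 454 and 0 to 0 for the interaction, and 847 to 1253 and 1 to 1 between the sgRNA groups. Differences that reversed ranged over both lines from -0.47 to 0.052 (GAS5), -0.74 to 0.35 (SNHG7), -0.74 to 0.10 (SNHG8), -0.79 to 1.40 (DANCR), -0.44 to 0.65 (NR4A1), -0.81 to 1.82 (SNORD29) and -1.22 to 0.17 (SNORD28). Apart from the lower end for GAS5, these ends came with a control left out and are the differences within 1 line. With an sgRNA library left out, SNHG7 (0.10), DANCR (-0.037) and NR4A1 (-0.20) reversed over both lines. In Jeko the differences that reversed were -0.48 to 0.58 (GAS5), -0.45 to 0.56 (ZFAS1) and -0.56 to 0.90 (SNORD28), and in Rec-1 -0.060 to 0.27 (SNHG8). For the interaction they were -1.04 to 0.012 (GAS5), -0.81 to 1.76 (SNHG1) and -0.21 to 0.81 (ZFAS1), and between the sgRNA groups -0.97 to 0.083 (GAS5), -0.14 to 2.42 (SNHG1) and -0.43 to 0.033 (SNHG15).

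The labels tie guides of the 2 lines by number alone (correlation of deviations 0.0998). With the replicate block, no member passed over both lines, and between the sgRNA groups SNHG12 was the member lost. Fits within a line could not be made without its control, nor guide fits with a library left out.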
